A study of Mus musculus with 30 samples.

Results

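The genes described here encode the proteins that cut miRNA precursors and the Argonautes that carry the mature miRNA. They were taken by name: Drosha, Dgcr8 and Xpo5 for nuclear processing and export, Dicer1 and Tarbp2 for dicing and loading, and the Argonautes Ago1, Ago2, Ago3 and Ago4. All 9 were among the 16242 features of the sperm table at 24 h. Of these 9, only Drosha, Xpo5 and Ago2 were among the 3082 features of the sperm table at 46 days, and the other 6 were not analysed at that time.

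Sperm RNA came from C57Bl/6J males that were 3 months old when they were injected intraperitoneally with tesaglitazar, which activates both PPARα and PPARγ, or with its vehicle, DMSO in saline. The dose was 10 μg/kg, given 2 times per week for 4 weeks, and the groups are TESA and CTRL. At 24 h after the last injection, polyadenylated RNA was sequenced in 4 TESA and 4 CTRL libraries (ai_1 to ai_8), and at 46 days rRNA-depleted total RNA was sequenced in 7 TESA and 7 CTRL libraries (KG8-01 to KG8-14). Cauda epididymal sperm was obtained by swim-up followed by lysis of somatic cells. The libraries held 15337517 to 27709918 estimated counts at 24 h and 4538101 to 13513801 at 46 days. The study counts animals as its n, but the labels do not tie each library to a single male, so p-values measure the spread between these libraries. Each table was normalized and fitted on its own, apart from the comparison between times, and levels are library-scaled counts (CPM, after TMM normalization). Fold changes are TESA over CTRL on the log2 scale, each with its standard error (SE).

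In the canonical pathway, the nuclease Drosha and its RNA-binding partner Dgcr8 form the Microprocessor, which frees the hairpin from the primary transcript. Exportin 5, encoded by Xpo5, carries the hairpin to the cytoplasm, where Dicer1 with Tarbp2 cuts out the duplex and an Argonaute takes up the guide strand. Loss of Drosha, Dgcr8 or Dicer1 in the male germ line impairs spermatogenesis.

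The sperm label was checked against markers. All 15 late spermatid and sperm genes were in both tables, and their summed level was 4095 to 13090 CPM at 24 h, led by Odf1, and 453 to 1088 CPM at 46 days, led by Prm2. Markers of other cell types were also in the table at 24 h. Of 12 leukocyte genes, 11 were in the table, with sums of 1211 to 2586 CPM and only the T cell gene Cd3e was missing. Cd52, which epididymal epithelium also expresses, made up 81.9% to 93.0% of this sum, and the other 10 genes summed to 145 to 314 CPM. Of 15 epididymal epithelium genes, 7 were in the table, with sums of 556 to 2063 CPM led by Crisp1. Sums were 53.5 to 270 CPM for the 4 of 6 blood genes, led by Hba-a2, 13.0 to 96.4 CPM for the 6 of 6 smooth muscle genes, led by Tagln, and 1.50 to 4.50 CPM for Sox9, the 1 of 10 Sertoli and Leydig genes in the table. For the 7 of 12 spermatogonia and spermatocyte genes they were 7.28 to 25.1 CPM, led by Zbtb16, and Sycp1, Sycp2, Sycp3, Hormad1 and Spo11 were missing. At 46 days, none of the leukocyte, epididymal, blood, smooth muscle, Sertoli or Leydig genes was in the table, and of the spermatogonia and spermatocyte genes only Ddx4 was, with 0 to 5.52 CPM. That table held 3082 features against 16242 at 24 h, so a missing gene does not say whether such cells were present. The part of these cells in the results was not tested, and fewer cells of a type cannot be told apart from less RNA per cell.

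At 46 days, 2 TESA libraries stood apart. KG8-02 held 158852 counts outside the 5 most abundant features and had 408 of the 3082 features at 0, and KG8-12 held 569647 such counts and had 148 features at 0. The other 12 libraries held 443105 to 7119432 such counts and had 0 to 43 features at 0. KG8-12 was the highest library for 604 of the 2264 mRNAs and lincRNAs tested (26.7%), more often than any other library. Libraries KG8-11 to KG8-14 held 1458 to 4128 CPM of Lars2 by library totals, against 92.1 to 212 in KG8-01 to KG8-10, and the labels name no batch. Each of these sets of libraries held both groups.

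In the sperm of TESA males at 24 h, no member reached an adjusted p under 0.05 (quasi-likelihood test of edgeR, adjusted by Benjamini-Hochberg over all genes tested), and neither did any other gene (0 of 13034, 0%). The exact test of edgeR, DESeq2 and limma voom likewise gave 0 genes. No member had an unadjusted p under 0.05 either, against 314 of the 13034 mRNAs and lincRNAs tested (2.41%). That number ranged from 220 to 483 when 1 library was left out, the latter without ai_3, and was 142 by library totals and 647 by limma voom. With a term for neighbouring library numbers (ai_1 with ai_2 and so on), which no label pairs and which was chosen after the values were seen, 1 member, Drosha, and 526 genes had an unadjusted p under 0.05, and again 0 genes an adjusted one. All 9 passed the filter on low counts. Drosha, with the smallest unadjusted p of the 9, was lower in every TESA library than in any CTRL library. Groups did not overlap for this 1 of the 9 genes, and for 399 of the 13034 (3.06%), of which 219 were lower and 180 higher in TESA. By library totals, 72 were lower and 156 higher in this way, with no member among them.

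Drosha, the nuclease of the Microprocessor, had 30.3, 28.9, 29.2 and 26.2 CPM in the TESA libraries ai_1, ai_3, ai_5 and ai_7. In the CTRL libraries ai_2, ai_4, ai_6 and ai_8 it had 47.1, 37.8, 33.9 and 33.1 CPM. The TESA libraries lay close together and all below the CTRL range, and the CTRL library ai_2 was highest. This gave a log2 fold change for Drosha of -0.41 (SE 0.20), and the quasi-likelihood test of edgeR gave an unadjusted p of 0.0644 (1.00 after Benjamini-Hochberg adjustment). Scaled by library totals, without TMM, its groups overlapped, with 24.9 to 41.2 CPM in TESA and 30.4 to 38.0 CPM in CTRL. That scaling moved the median log2 fold change of all tested genes from -0.01 to 0.21. Under it, the log2 fold change of Drosha was -0.17, or -0.38 relative to this median. Without the CTRL library ai_2 its log2 fold change was -0.27.

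**Figure D1:**
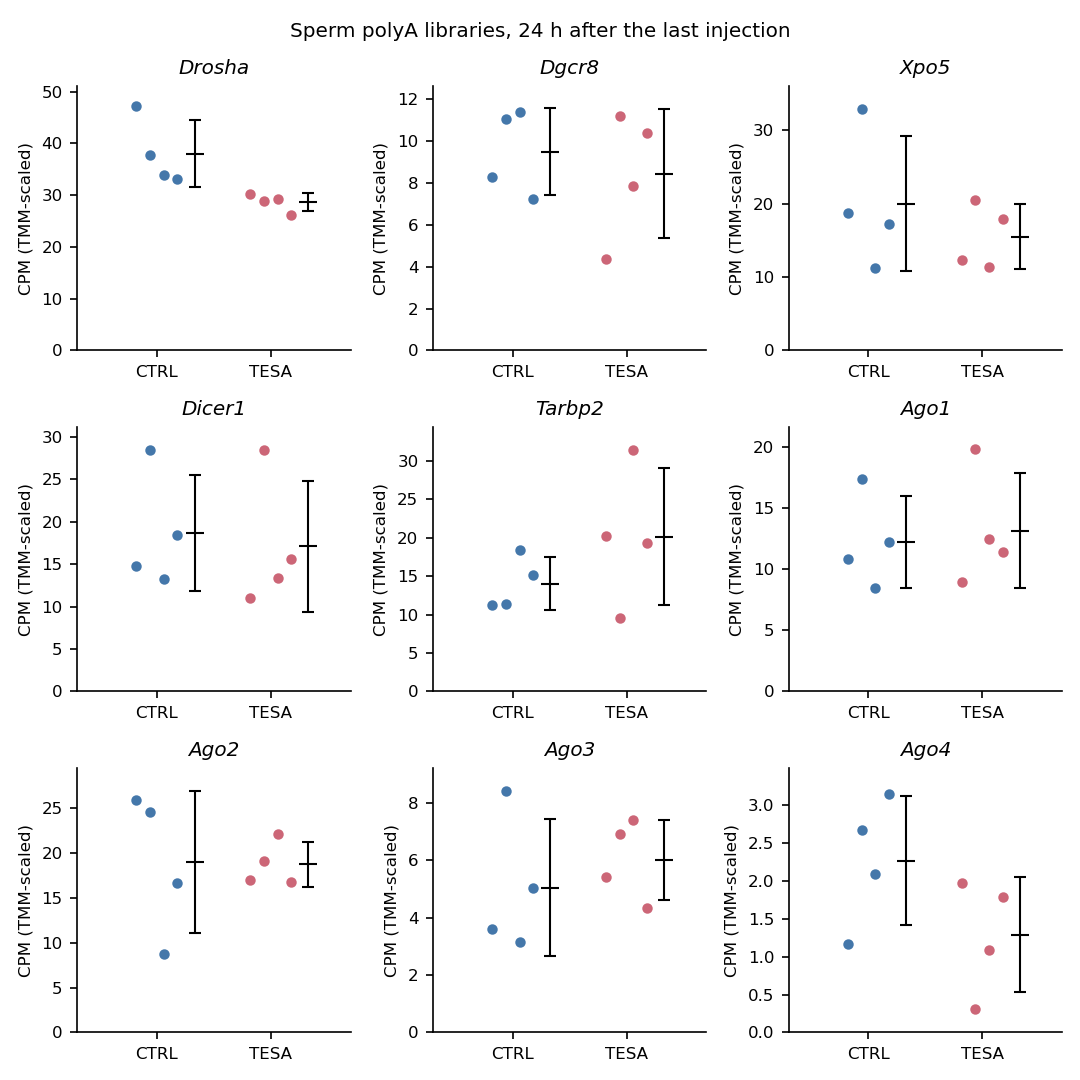
Level of each of the 9 genes in each library at 24 h, in CPM scaled by TMM, with points for 4 CTRL and 4 TESA libraries and bars for the mean and SD. For Drosha the 4 TESA libraries, at 26.2 to 30.3 CPM, lie below the 4 CTRL libraries, and for the other 8 genes the groups overlap.

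Dgcr8, which binds the primary transcript for Drosha, had 4.38, 11.2, 7.84 and 10.4 CPM in the TESA libraries and 8.27, 11.1, 11.4 and 7.23 CPM in the CTRL libraries, in the same order. The groups overlapped and only ai_1 lay below the CTRL range. Its log2 fold change was -0.17 (SE 0.35), and 0.06 without ai_1.

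Xpo5, the export receptor for the hairpin, had 12.3, 20.5, 11.4 and 18 CPM in TESA and 18.7, 32.9, 11.2 and 17.2 CPM in CTRL. The highest value, in ai_4, stood well above the other CTRL libraries, and the groups overlapped. Xpo5 had a log2 fold change of -0.36 (SE 0.35), and without ai_4 it was 0.01.

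Dicer1, which cuts the hairpin to the duplex, had 11.0, 28.4, 13.4 and 15.6 CPM in TESA and 14.8, 28.5, 13.2 and 18.4 CPM in CTRL. One library in each group, ai_3 and ai_4, stood above the rest at nearly the same level. These libraries also had the lowest summed late spermatid and sperm markers, 5874 and 4095 CPM, and the part of that difference in the Dicer1 level was not tested. For Dicer1 the log2 fold change was -0.13 (SE 0.36), with -0.49 without ai_3 and 0.17 without ai_4.

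Tarbp2, the double-stranded RNA-binding partner of Dicer1, had 20.2, 9.56, 31.3 and 19.3 CPM in TESA and 11.2, 11.3, 18.4 and 15.2 CPM in CTRL. Of the TESA libraries, 3 lay above every CTRL library and ai_3 lay below every CTRL library. The log2 fold change of Tarbp2 was 0.52 (SE 0.35), the highest of the 9 genes. Without ai_3 it was 0.75 and without ai_5 it was 0.24, with unadjusted p of 0.0306 and 0.497 in the quasi-likelihood test of edgeR. In ai_3, the Tarbp2 level was low where the Dicer1 level was high.

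Among the Argonautes at 24 h, Ago2, the member whose slicer activity is best known, had 17.0, 19.1, 22.1 and 16.7 CPM in TESA and 25.9, 24.6, 8.78 and 16.7 CPM in CTRL. The TESA values lay inside the CTRL range, and the spread was wider in CTRL (SD 7.93, n = 4) than in TESA (SD 2.48, n = 4). The log2 fold change of Ago2 was -0.02 (SE 0.33), and its sign differed between settings. Ago1 had 8.94 to 19.9 CPM in TESA and 8.44 to 17.4 CPM in CTRL, a log2 difference of 0.11 (SE 0.33). As for Dicer1, ai_3 and ai_4 held the highest Ago1 values of their groups, and Ago1 was at -0.16 without ai_3 and 0.35 without ai_4.

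Ago3 had 4.34 to 7.39 CPM in TESA and 3.15 to 8.41 CPM in CTRL, a log2 difference of 0.25 (SE 0.41). Ago4 had 1.97, 0.303, 1.08 and 1.79 CPM in TESA and 1.17, 2.67, 2.09 and 3.15 CPM in CTRL, from 7 to 95 estimated counts. Its groups overlapped through ai_2, the lowest CTRL library. Its log2 fold change of -0.82 was the lowest of the 9 and had the largest SE, 0.73, and it was -0.49 without ai_3, the library with 7 counts. Ago3 ranged from 0.08 without ai_6 to 0.64 without ai_4. Ago3, Ago1 and Ago4 lie side by side on chromosome 4 of GRCm38.p6 in RefSeq, the build that the submitters name being GRCm38, with Ago3 at chr4:126326994-126431670, Ago1 at chr4:126435012-126468707 and Ago4 at chr4:126489487-126533586. No other annotated gene lies wholly in this stretch. Their log2 fold changes did not share a sign.

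Over the 9 genes at 24 h, 3 log2 fold changes were above 0 and 6 below, with a median of -0.13, against 6393 above and 6641 below with a median of -0.01 over all 13034. By library totals Dgcr8, Dicer1 and Ago2 moved above 0, at 0.12, 0.11 and 0.27, where the median of all genes was 0.21. The 3 nuclear genes were all below 0, a shared sign that was lost without ai_1 for Dgcr8 and without ai_4 for Xpo5. With library totals this held for Drosha, at -0.17, and Xpo5, at -0.05, but not for Dgcr8, at 0.12. Relative to the median of all genes under that scaling Dgcr8 was at -0.08. By mean CPM, Drosha ranked 1252 of 13034 and Ago4 11017 of 13034. These ranks say how deeply each gene was counted. Levels were not compared between genes, since transcript lengths were not used here.

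The other members lie apart from the chromosome 4 group. Ago2 (chr15:73101625-73184947), Drosha (chr15:12824804-12935291) and Tarbp2 (chr15:102516077-102523676) lie on chromosome 15. Dicer1 lies at chr12:104687740-104751968, Dgcr8 at chr16:18253948-18289251 and Xpo5 at chr17:46202811-46243598. RefSeq promoter windows of 300 bases were matched for 8 of the 9 genes, all but Ago2, with 9 windows since Ago1 had 2. The windows of Tarbp2 (chr15:102517942-102518241) and Ago3 (chr4:126429493-126429792) lie wholly inside the gene coordinates given here, away from the outer start. The other windows span it. All 9 windows were rich in CpG, with 21 to 54 CpG each, against a median of 7 over the 32851 windows of the reference, of which 24.8% had at least 21. Since tesaglitazar activates PPARs, the windows were searched on both strands for AGGTCA and for AGGTCA, any base and AGGTCA again, which contains the first. Neither was in any of the 9 windows, and they were in 16.3% and 0.0396% of all windows. That says only that these letters are not in these windows. The first 250 bases of the Drosha window, shown since this gene had separate groups at 24 h, run slightly past its annotated start and are printed from RefSeq (GRCm38.p6, chr15:12824565-12824814, plus strand) with each of the 33 CpG in capitals.
Drosha: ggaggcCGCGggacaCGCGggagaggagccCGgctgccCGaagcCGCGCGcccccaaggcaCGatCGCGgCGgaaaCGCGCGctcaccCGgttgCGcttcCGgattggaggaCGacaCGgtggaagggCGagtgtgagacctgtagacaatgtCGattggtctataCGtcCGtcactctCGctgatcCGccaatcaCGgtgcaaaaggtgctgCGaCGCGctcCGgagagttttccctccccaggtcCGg

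At 46 days, the 3 members in the table passed the filter. No member reached an adjusted p under 0.05 (quasi-likelihood test of edgeR, Benjamini-Hochberg), nor did any other gene (0 of 2264, 0%), while the exact test of edgeR gave 13 genes, no member among them, and DESeq2 and limma voom gave 0. An unadjusted p under 0.05 was found for 1 of the 3, Ago2, and for 130 of the 2264 mRNAs and lincRNAs tested (5.74%), of which 112 were higher and 18 lower in TESA. That number was 75 without KG8-12 and 38 by library totals. The groups overlapped for all 3 genes, and did not for 1 of the 2264 (0.0442%). In the TESA group, Drosha was estimated at 0 in KG8-02 and KG8-12, and Ago2 was highest in KG8-12.

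Drosha at 46 days had a lowest, median and highest level of 0, 28.4 and 46.7 CPM in TESA and of 31.1, 38.6 and 46.8 CPM in CTRL. The other 5 TESA libraries had 44.4, 46.7, 18.5, 28.4 and 35.6 CPM in KG8-01, KG8-03, KG8-04, KG8-05 and KG8-11, of which KG8-04 and KG8-05 lay below the CTRL range. In counts, Drosha had 0 in KG8-02 and KG8-12 and 87 to 2733 in the other 12 libraries. At the mean of those 12 libraries, 37.5 CPM (SD 8.51, n = 12), 32.2 counts would fall in KG8-02 and 94.8 in KG8-12. A count of 0 allows up to 3 counts, that is 3.49 CPM in KG8-02 and 1.19 CPM in KG8-12, for counting error only. In each of these libraries the level was thus below the lowest of the other 12, 18.5 CPM in KG8-04. Salmon divides reads among transcripts by an estimate, and whether the 0 reflects that step was not tested.

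In both KG8-02 and KG8-12, 50 features were at 0. Among these 50, Drosha had the highest minimum over the other 12 libraries, 87 counts, followed by Spryd3 with 33.2, a gene named after its values were seen. Of the 268 mRNAs and lincRNAs at least as abundant as Drosha over the other 12 libraries, Drosha included, 3 were at 0 in KG8-02, namely Drosha, Azin2 and Med12, and 1 was at 0 in KG8-12, Drosha. These counts were chosen after the Drosha values were seen, and abundance was taken over the 12 libraries where Drosha was not at 0. They describe these libraries and cannot say how rare such zeros are.

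For Drosha at 46 days the log2 fold change was -0.60 (SE 0.59), and the quasi-likelihood test of edgeR with Benjamini-Hochberg adjustment gave a p of 0.999. It was -0.48 without KG8-02, -0.40 without KG8-12 and -0.23 without both, the last a comparison chosen after the values were seen. By library totals it was -1.16, where the median of all tested genes was -1.03, so that Drosha stood at -0.13 relative to it. Within a library, the ratio of Drosha to Xpo5 counts does not depend on scaling. It was 3.00 to 8.63 in the 12 libraries with Drosha counts, against 1.15 to 3.02 in the 8 libraries at 24 h, where time, library type and run cannot be told apart. At 24 h the ratio was 1.41 to 2.57 in TESA and 1.15 to 3.02 in CTRL. The groups thus overlapped in this ratio, which also carries the spread of Xpo5.

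Xpo5 at 46 days had a lowest, median and highest level of 5.69, 6.69 and 7.11 CPM in TESA and of 5.01, 6.07 and 6.94 CPM in CTRL. Here KG8-02, at 5.82 CPM, and KG8-12, at 7.11 CPM, lay with or close to the other libraries, from 5 and 18 counts. Its log2 fold change was 0.13 (SE 0.15, n = 7 and 7), and 0.07 without KG8-12. The interval of 2 SE ran from -0.16 to 0.43.

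Ago2 at 46 days had a lowest, median and highest level of 1.164, 2.97 and 20.6 CPM in TESA and of 1.85, 2.41 and 3.48 CPM in CTRL. The highest value was that of KG8-12, from 51.8 estimated counts, and the next, 7.02 CPM, that of KG8-01. The lowest was that of KG8-02, from 1 count. Across both groups the log2 fold change of Ago2 was 1.11 (SE 0.50), and the quasi-likelihood test of edgeR gave an unadjusted p of 0.0404 (0.790 after Benjamini-Hochberg adjustment). Without KG8-12 the log2 fold change was 0.37 and the unadjusted p 0.251. With a term for libraries KG8-11 to KG8-14 they were 0.91 and 0.0720, and by limma voom 0.45 and 0.187. By library totals the log2 fold change was -0.36, where the median of all tested genes was -1.03, so that Ago2 stood at 0.66 relative to it. Ago2 lost its unadjusted p under 0.05, or was not tested, in 14 of 27 alternatives. In KG8-12 the count of Ago2 was 2.88 times that of Xpo5, against 0.241 to 1.03 times in the 12 libraries other than KG8-02 and KG8-12. Ago2 had over 20 counts in 7 of the 14 libraries, just above the 6 the filter asks for.

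**Figure D2:**
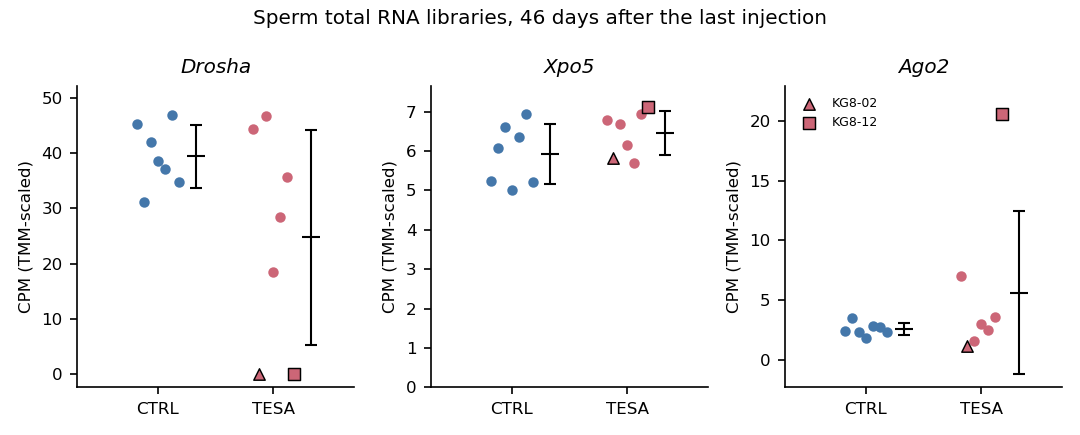
Level of Drosha, Xpo5 and Ago2 in each library at 46 days, in CPM scaled by TMM, with points for 7 CTRL and 7 TESA libraries, bars for the mean and SD, a triangle for KG8-02 and a square for KG8-12. Drosha is at 0 in both marked libraries, Xpo5 lies with the others in KG8-02 and at the top in KG8-12, and Ago2 reaches 20.6 CPM in KG8-12.

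**Figure D3:**
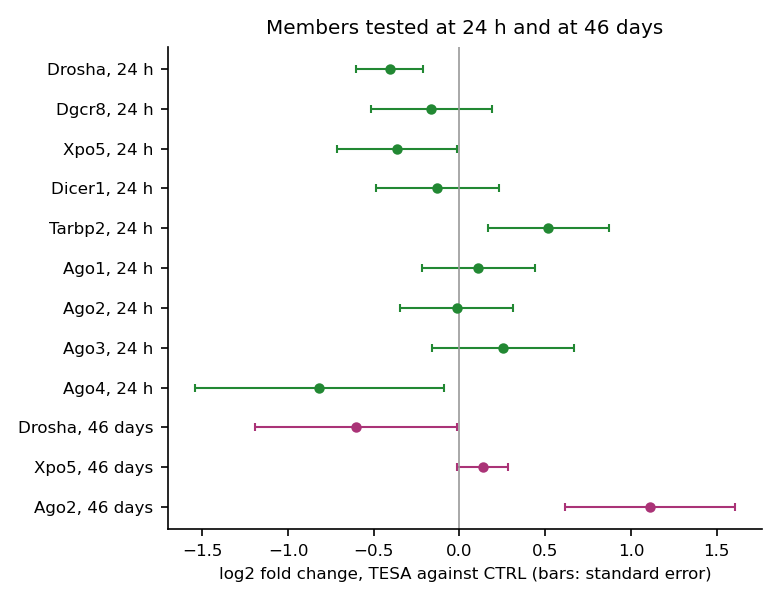
Log2 fold change of TESA against CTRL for the 9 genes at 24 h and the 3 genes at 46 days, with bars of 1 SE from the quasi-likelihood fit of edgeR. Bars of Drosha and Tarbp2 at 24 h and Ago2 at 46 days lie farthest from 0 relative to their error.

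The TESA effect was compared between the times for the 3 genes in both tables, in a fit of 2143 mRNAs and lincRNAs over all 22 libraries. For this the libraries of both times were normalized and fitted together, so the differences need not equal the separate effects subtracted. No member reached an adjusted p under 0.05 (quasi-likelihood test of edgeR, Benjamini-Hochberg), nor did any other gene (0 of 2143, 0%), while limma voom gave 1 gene that is not a member. None of the 3 had an unadjusted p under 0.05, against 106 of 2143 (4.95%), a number that was 14 by library totals and 187 by limma voom. The effect at 46 days minus that at 24 h was 0.93 on the log2 scale for Ago2 (SE 0.70), -0.33 for Drosha (SE 0.86) and 0.32 for Xpo5 (SE 0.37). The median difference of all genes was 0.14, and relative to it Ago2 stood at 0.79, Drosha at -0.47 and Xpo5 at 0.18. The Ago2 difference was 0.31 without KG8-12 and 0.08 by limma voom. The median was 0.11 in each of these, so that Ago2 stood at 0.20 and -0.03 relative to it. Without both KG8-02 and KG8-12 the Drosha difference was 0.10. There the median was 0.17, so that Drosha stood at -0.07 relative to it. Time, library type and sequencing run cannot be told apart in this comparison.

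The genes that most resembled 2 of the members across the 8 libraries at 24 h were named by the smallest root mean square difference of log2 CPM, each gene centred on its mean, among genes whose SD was at least 80% of that of the member. For Ago2 they were Adgrf1 (0.19), Mroh2a (0.20) and Mcm2 (0.23) among 10891 genes. For Dicer1 they were Lipg (0.07), Nktr (0.08) and Crebbp (0.11) among 10595 genes. The member nearest to Dicer1 was Ago1, at 0.19, with 23 genes closer, and Tarbp2 was at 0.93, with 5446 genes closer. Dicer1 and Ago1 thus followed each other across the libraries while Dicer1 and its partner Tarbp2 did not. All of this describes 8 libraries.

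Of 87 further genes of the pathway in 7 lists, 82 were in the table at 24 h and 80 were tested. By the quasi-likelihood test of edgeR with Benjamini-Hochberg adjustment 0 of the 80 reached an adjusted p under 0.05, and 1 of 80 had an unadjusted p under 0.05, against 2.41% of all tested genes. Their median log2 fold change was -0.12, with 33 above 0 and 47 below. Groups did not overlap for 3 of the 80, Zcchc11, Ddx6 and Mapkapk2, against 3.06% of all tested genes. For Mapkapk2 the groups nearly met, at 22.4 CPM in the TESA library ai_3 and 22.3 CPM in the CTRL library ai_6. By library totals, without TMM, its groups overlapped, while those of Zcchc11 and Ddx6 did not.

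The gene with the unadjusted p under 0.05 was Zcchc11, also called Tut4, the terminal uridylyltransferase that adds uridines to let-7 precursors bound by LIN28 and to mRNAs with short poly(A) tails. It had 18.9, 14.2, 10.3 and 10.3 CPM in the TESA libraries ai_1, ai_3, ai_5 and ai_7 and 22.1, 21.8, 26.4 and 30.3 CPM in the CTRL libraries ai_2, ai_4, ai_6 and ai_8. All 4 TESA libraries lay below the CTRL range. Zcchc11 thus had a log2 fold change of -0.91 (SE 0.27), and the quasi-likelihood test of edgeR gave an unadjusted p of 0.00653 (1.00 after Benjamini-Hochberg adjustment). In its list, miRNA tailing, decay and LIN28, 9 of the 10 tested genes were below 0, against 6641 of all 13034, with a median of -0.40. Lin28a and Lin28b were not in the table at 24 h. The highest of the list by CPM, with no correction for length, was Zswim8, a factor of target-directed miRNA decay, at -0.51 (SE 0.39). Zswim8 was at 0.02 without the CTRL library ai_4. At 46 days Zcchc11 overlapped between groups, with 15.2, 23.3 and 36.9 CPM as lowest, median and highest in TESA and 14.1, 15.8 and 34.4 CPM in CTRL, and a log2 difference of 0.32 (SE 0.25), which was 0.75 in libraries KG8-01 to KG8-10 alone and 0.17 without KG8-03.

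Ddx6, the helicase that links the silencing complex to decapping, had the lowest log2 fold change of the 80 at 24 h. It had 0, 16.1, 1.77 and 0 CPM in the TESA libraries ai_1, ai_3, ai_5 and ai_7 and 25.1, 36.6, 31.0 and 33.8 CPM in the CTRL libraries ai_2, ai_4, ai_6 and ai_8. In counts these were 0, 373, 36.3 and 0 in TESA against 300, 453, 640 and 1020 in CTRL. Its log2 fold change was -2.82 (SE 1.38), and the quasi-likelihood test of edgeR gave an unadjusted p of 0.0688 (1.00 after Benjamini-Hochberg adjustment). Without ai_3 it was -5.80, and by limma voom it was -7.44, with no adjusted p under 0.05. Of the 1171 tested genes with at least 25.1 CPM in every CTRL library, Ddx6 was the only 1 at 0 in 2 or more TESA libraries. That level is the lowest CTRL level of Ddx6 itself, so the count restates its zeros and cannot say how rare they are. With the same level in every TESA library, 0 of 1245 genes were at 0 in 2 or more CTRL libraries. As for Drosha at 46 days, zeros stood beside high counts in libraries of the same group, whether they reflect the division of reads among transcripts was not tested, and the count of genes was chosen after the values were seen.

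In the list of deadenylation and decapping factors, to which Ddx6 belongs, 9 of 22 tested genes were above 0 and 13 below, with a median of -0.07. Cnot7, a deadenylase of the CCR4-NOT complex, had 1.60 to 5.23 CPM in TESA and 3.93 to 13.6 CPM in CTRL, a log2 difference of -1.13 (SE 0.52), or -0.72 without ai_8. Cnot10, another subunit of that complex, had 18.6 to 27.4 CPM in TESA and 16.7 to 19.1 CPM in CTRL and a log2 difference of 0.46 (SE 0.21). Cnot7 and Cnot10, named by their small unadjusted p, thus had opposite signs. Neither had an unadjusted p under 0.05 in the quasi-likelihood test of edgeR, and the other subunits of the complex are not given here. Pabpc1, the cytoplasmic poly(A)-binding protein and the highest of the list by CPM, was at -0.08 (SE 0.18).

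**Figure D4:**
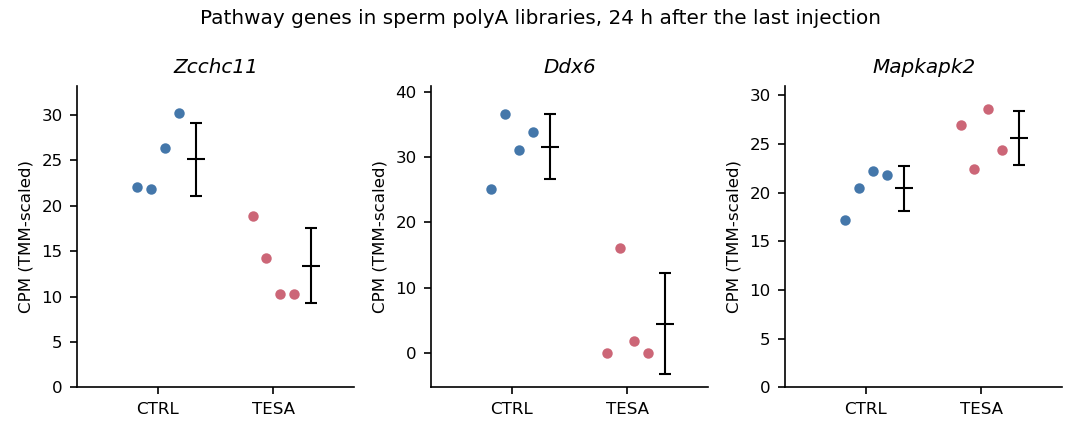
Level of Zcchc11, Ddx6 and Mapkapk2, the 3 tested pathway genes whose groups did not overlap at 24 h, in each library, in CPM scaled by TMM, with points for 4 CTRL and 4 TESA libraries and bars for the mean and SD. On this scaling Zcchc11 and Ddx6 are lower and Mapkapk2 higher in every TESA library, and Ddx6 is at 0 in 2 of them. By library totals the groups of Mapkapk2 overlap.

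For the remaining lists at 24 h the medians lay between -0.20 and 0.08. Among regulators of Argonaute, 3 of 10 were above 0, with a median of -0.20. Mapkapk2, a kinase reported to phosphorylate Ago2, had 22.4 to 28.6 CPM in TESA and 17.2 to 22.3 CPM in CTRL, a log2 difference of 0.32 (SE 0.20), and P4hb, a subunit of the prolyl hydroxylase that modifies Ago2, was at 0.09 (SE 0.20). Among Argonaute loading chaperones, 4 of 8 were above 0, with a median of -0.02. Hsp90ab1, the highest of them by CPM, was at 0.14 (SE 0.20) and its co-chaperone Fkbp4 at 0.35 (SE 0.20).

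Microprocessor cofactors had 6 of 12 genes above 0 and a median of 0.02, and the helicase Ddx5 was at -0.45 (SE 0.28), with 3 of the 4 TESA libraries below every CTRL library, and ranged from -0.70 without ai_3 to -0.29 without ai_5. Export and Dicer partners had 4 of 8 above 0 and a median of 0.03, and Ran, the GTPase that Xpo5 depends on, was at 0.17 (SE 0.64). Ran had 1.54 CPM in the CTRL library ai_4, and was at -0.19 without it and 0.59 without ai_8. GW182 scaffolds and silencing partners had 6 of 10 above 0 and a median of 0.08, and Tnrc6b, a GW182 protein bound by Argonautes, was at -0.20 (SE 0.29), or -0.01 without ai_2. None of these lists held a gene with an unadjusted p under 0.05.

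At 46 days, 16 of the 87 pathway genes were in the table and all 16 were tested. By the quasi-likelihood test of edgeR with Benjamini-Hochberg adjustment 0 of the 16 reached an adjusted p under 0.05, and 1 of 16 had an unadjusted p under 0.05, against 5.74% of all tested genes. Of the 16, 14 were above 0 and 2 below, with a median of 0.42. Over all tested genes 1253 of 2264 were above 0, with a median of 0.03. KG8-12 was the highest library for 10 of these 16 genes and for 2 of the 3 members, Xpo5 and Ago2, against 26.7% of all tested genes. The tally of signs rests in part on KG8-12. Without it, Hsp90ab1 and Ube2d3 were below 0, at -0.15 and -0.01, and Ddx5, Ddx17 and Xrn2 were at 0.07, 0.02 and 0.14.

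The gene with the unadjusted p under 0.05 was Hsp90ab1, which helps load Argonautes, with 73.9 CPM in KG8-12, 0 in KG8-02 and at most 4.35 CPM in the other TESA libraries, and 0.905 to 4.59 CPM in CTRL. Its log2 fold change of 1.99 (SE 0.86) had an adjusted p of 0.764 by the quasi-likelihood test of edgeR with Benjamini-Hochberg, and was -0.15 without KG8-12. In the list of loading chaperones both tested genes were above 0, with a median of 1.42. That shared sign was lost without KG8-12, since Hsp90ab1 was then below 0. Of the Microprocessor helicases, both were highest in KG8-12. Ddx5 had 71.5 CPM in KG8-12 and 6.46 to 15.9 CPM in the 7 CTRL libraries, and Ddx17 had 44.7 CPM in KG8-12 and 7.37 to 12.6 CPM in CTRL. Their log2 fold changes were 0.82 (SE 0.42) and 0.58 (SE 0.35), and 0.07 and 0.02 without KG8-12. Of the 3 cofactors tested, 2 were above 0, with a median of 0.58. This median is the value of Ddx17 itself, which was 0.02 without KG8-12. The marker lists of other cell types held 0 genes at 46 days apart from germ cell genes, so their level in KG8-12 was not analysed here. The summed late spermatid and sperm markers were 526 CPM in KG8-12, the lowest of the 7 TESA libraries, against 453 to 1018 CPM in CTRL, and their part in these values was not tested.

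Tnrc6b differed from these, with 25.3 CPM in KG8-12, the lowest of the 14 libraries. It was at -0.07 (SE 0.16), and the 3 genes of its list had a median of 0.02. The 4 genes of tailing and decay were all above 0 with a median of 0.37, including the exonuclease Xrn2 at 0.67 (SE 0.38) and the poly(A) ribonuclease Parn at 0.42 (SE 0.23). Without KG8-12, where Xrn2 had 13.4 CPM against at most 4.29 CPM in the other 13 libraries, they were at 0.14 and 0.23. Both genes of deadenylation and decapping were above 0 with a median of 0.76, including the 5′ to 3′ exonuclease Xrn1 at 0.71 (SE 0.58). Xrn1 had 12.3 CPM in KG8-12 and 0 in the CTRL library KG8-07, and was at 0.34 without the former and 0.47 without the latter. Over all alternatives it ranged from -0.61 to 1.34. Both regulators of Argonaute were above 0 with a median of 0.22, including Ube2d3 at 0.41 (SE 0.31), which was at -0.01 without KG8-12. No export or Dicer partner was tested at 46 days.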

How the data were processed

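The estimated counts per gene or repeat family were made by the authors with Salmon 0.11.2 in its strand-specific setting after trimming with Trim Galore 1.16, against GRCm38, per the submitters' processing notes as deposited. Counts were rounded for the fits, and mRNAs and lincRNAs were tested if over 20 counts were reached in at least 4 libraries at 24 h and 6 at 46 days, 80% of the smaller group. Library factors came from TMM over all features of each time, and for the comparison between times from TMM over the 2957 features shared by both. The quasi-likelihood test of edgeR 4.0.16 was the principal test, the exact test used by the study an alternative, with Benjamini-Hochberg adjustment over all genes tested. SE is the log2 fold change divided by the root of F. DESeq2 1.42.0, limma 3.58.1 (R 4.3.3), other scalings, other filters and omission of libraries were alternatives. The fits were first tried on simulated counts, and tables and figures were made in Python 3.11.15 with matplotlib 3.10.9. Named pathway genes are the highest by CPM in each list and the 6 with the smallest unadjusted p, and Mapkapk2, Ddx6 and Zcchc11 also as groups that did not overlap. The members and lists were chosen with earlier results of these data known. The serum table was not used here.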

Additional observations from a re-analysis of the deposited data

Results flagged for a closer look

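Of 42 groups of values checked for a library far from the others, 3 held one, where chance alone gives about 1 in 20. Ago2 in the TESA library KG8-12 at 46 days had 20.6 CPM, while the other 6 TESA libraries had at most 7.02 CPM. The summed spermatogonia and spermatocyte markers in the TESA library ai_1 at 24 h were 7.28 CPM, while the other 3 TESA libraries had 19.7 to 21.5 CPM. The summed smooth muscle markers in the TESA library ai_5 at 24 h were 96.4 CPM, while the other 3 TESA libraries had 33.8 to 37.7 CPM.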

How the results depend on the processing

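Of the values under alternatives, 399 of 418 at 24 h, 305 of 323 at 46 days and 12 of 15 for the difference between times kept their side. Those that reversed follow, and the cause was not tested. Scaled by library totals, log2 fold changes at 24 h were 0.12 for Dgcr8, 0.11 for Dicer1, 0.27 for Ago2, 0.02 for Tnrc6b and 0.11 for Pabpc1, and Ago2 was 0.15 by limma voom and 0.08 with the term for neighbouring library numbers. At 46 days library totals gave -0.86 for Xpo5, -0.36 for Ago2, -0.63 for Ddx5, -0.82 for Ddx17, -0.08 for Hsp90ab1, -0.61 for Xrn1, -0.95 for Xrn2, -0.97 for Zcchc11, -1.04 for Ube2d3 and -0.83 for Parn, where the median of all genes was -1.03. Hsp90ab1 was -0.11 by DESeq2, -0.41 in KG8-01 to KG8-10 alone and -0.07 without both KG8-02 and KG8-12, an alternative chosen after the values were seen. Tnrc6b was 0.11 in KG8-01 to KG8-10 and 0.05 without both, and Ube2d3 was -0.10 without both. For the difference between times, Drosha was 0.10 without both, where the median of all genes was 0.17. There, library totals gave -0.82 for Xpo5 and -0.61 for Ago2, where the median of all genes was -0.96. Relative to that median, Xpo5 stood at 0.14 and Ago2 at 0.34. Leaving out 1 library gave ranges at 24 h of -0.33 to 0.06 for Dgcr8, -0.56 to 0.01 for Xpo5, -0.49 to 0.17 for Dicer1, -0.16 to 0.35 for Ago1, -0.25 to 0.18 for Ago2, -0.19 to 0.59 for Ran and -0.74 to 0.02 for Zswim8, and at 46 days of -0.15 to 2.24 for Hsp90ab1 and -0.01 to 0.50 for Ube2d3. Without a change of sign, the ranges were -0.47 to -0.27 for Drosha, 0.24 to 0.75 for Tarbp2, 0.08 to 0.64 for Ago3, -0.37 to -0.01 for Tnrc6b, -1.07 to -0.49 for Ago4 and -5.80 to -2.38 for Ddx6 at 24 h, and -0.85 to -0.40 for Drosha, 0.37 to 1.30 for Ago2, 0.34 to 0.83 for Xrn1, 0.14 to 0.81 for Xrn2 and 0.23 to 0.47 for Parn at 46 days. Genes at an adjusted p under 0.05 numbered 13 by the exact test of edgeR at 46 days and 1 by limma voom for the difference between times, against 0 by the quasi-likelihood test of edgeR. No pairing given by the labels could be fitted, because the labels pair no libraries and the groups share no library numbers. The term for neighbouring numbers at 24 h, a pairing by order that no label gives, left 0 genes at an adjusted p under 0.05 in the quasi-likelihood test of edgeR, with 526 genes at an unadjusted p under 0.05 against 314 and 1 member, Drosha, against 0. Ago2 did not pass the filter in KG8-01 to KG8-10 alone. Depth limits KG8-02 most, where Ago2 rests on 1 count and Xpo5 on 5.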
